A study of Canis lupus familiaris with 2 samples.

Results

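The miR-17 seed family and its sister miR-18 were examined in dog serum. The family was taken by name, as every dog miRNA on the array named miR-17, miR-18, miR-20, miR-93 or miR-106 with or without a letter. This gave 8 of the 291 dog miRNAs on the array, namely cfa-miR-17, cfa-miR-20a, cfa-miR-20b, cfa-miR-93, cfa-miR-106a and cfa-miR-106b, together with cfa-miR-18a and cfa-miR-18b.

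The array compared a pool of sera from 3 dystrophic dogs with a pool from 3 normal dogs. All were males aged 2 months and came from the CXMD_J colony, which carries an X-linked muscular dystrophy and serves as a dog model of Duchenne muscular dystrophy. Each pool was hybridized to 1 array with 1 spot per dog miRNA, so that the spread between dogs could not be measured and no test between the conditions was possible. The comparison asks which serum miRNAs differ around the onset of symptoms.

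miRNAs are small RNAs that lower the output of mRNAs by pairing with them, and the bases near the 5′ end, called the seed, largely set which mRNAs are bound. miR-17, miR-20a, miR-20b, miR-93, miR-106a and miR-106b share a seed, and known targets of this family include the cell cycle inhibitor CDKN1A and the E2F1 transcription factor. miR-18a and miR-18b have a closely related seed but are usually counted as a family of their own. The 8 miRNAs are processed from 3 precursor transcripts, known as the miR-17-92, miR-106a-363 and miR-106b-25 clusters, of which miR-17-92 is an oncogene also called oncomir-1. They are abundant in dividing cells and in blood cells, and are found in serum.

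Of the 5 members detected in both pools, miR-20a, miR-20b, miR-93 and miR-106a had a lower normalized signal in dystrophic than in normal serum, by a ratio from 0.348 for miR-20a to 0.688 for miR-93. The interval for spot noise, defined below, included 1 for miR-20b (0.0846 to 1.59). Without scaling between the arrays only that of miR-20a lay below 1. On the dystrophic array 18 of the 32 negative-control spots were as bright as the spot of miR-20a, and 13 as that of miR-20b. The ratios of these 4 members stayed below 1 under every processing that gave them a value, but every processing used the same spots. Subtraction of the local background gave no ratio, and a required signal of 25 in both pools left miR-93 alone. The spots of miR-18a were at background on both arrays, and its ratio of 0.853 turned to 1.07 when the arrays were left unscaled and to 1.12 when they were scaled on control probes. The median ratio of the 5 members was 0.548, compared with 1.09 over the 142 dog miRNAs detected in both pools. The signals were weak, and the 3 members left without a ratio lay near the background.

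The signals were obtained as follows. The 1408 blank spots were trimmed by 5% at either end, and their mean was taken away from the intensity of each spot, which left the value above background in scanner units. A miRNA was counted as detected when it was more than 2 SD of the trimmed blank spots above that mean, a distance of 7.87 units on the array of normal serum and 8.24 units on that of dystrophic serum. The values of each array were then multiplied by 1 factor to set the median of its detected miRNAs to 25, and the result is called the normalized signal. The limit was a low one. It was passed by 48 of the 181 spots without a probe on the normal array and by 43 on the dystrophic array, and by 21 and 27 of the 32 negative-control spots. A 95% noise interval of a ratio was calculated from the spread of the blank spots and from the coefficient of variation between copies of bright control probes, 5.26%. It covers the noise seen in blank spots and in copies of bright controls. It does not cover the higher intensities of the negative-control spots, and may therefore be too narrow for dim spots. Nor does it cover the differences between dogs, RNA preparations or arrays.

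Detection differed among the members. Of the 8, 5 were detected in both pools, 1 in normal serum alone, 1 in dystrophic serum alone and 1 in neither. Of all 291 dog miRNAs, 48.8% were detected in both, 5.84% in normal serum alone, 15.8% in dystrophic serum alone and 29.6% in neither, so the counts among the members, of 1 miRNA each for the last 3 classes, were near the background shares. All 8 spots were marked as usable by the scanner software at every gain.

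**Figure D1:**
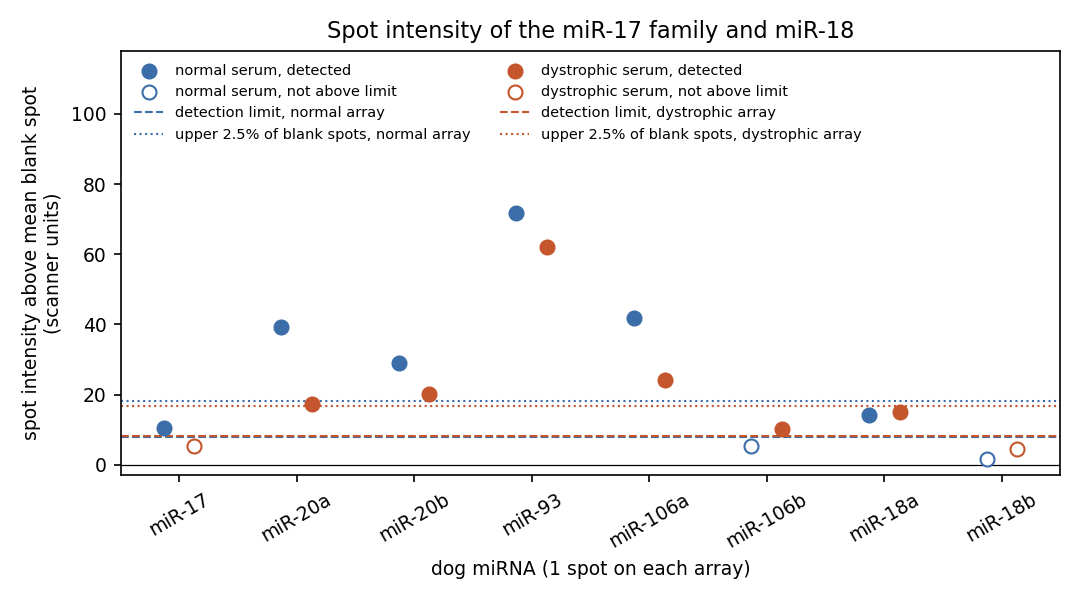
Spot intensity above the mean blank spot (y axis, scanner units) for each member (x axis) in normal serum (blue) and dystrophic serum (orange), with 1 spot per point; filled points were detected, dashed lines are the detection limits and dotted lines the levels that the brightest 2.5% of blank spots exceed. miR-93 is the only member above 60 units on both arrays, while miR-17, miR-106b, miR-18a and miR-18b lie under the dotted lines.

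miR-20a, a member of the miR-17-92 cluster, had the lowest ratio. Its spot was 39.3 units above the mean blank spot in normal serum and 17.2 units in dystrophic serum, which gave normalized signals of 40.9 and 14.2. On the normal array 9 blank spots reached the brightness of this spot, on the dystrophic array 34 did. The ratio of 0.348 had a noise interval from 0.00693 to 0.744. The dystrophic spot was hardly above the level that the brightest 2.5% of the blank spots exceed, 16.8 units, and the lower limit of the interval was therefore close to 0. Of the 32 negative-control spots, 1 was as bright as the spot of miR-20a on the normal array and 18 on the dystrophic array.

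miR-106a, from the miR-106a-363 cluster on the X chromosome, had the second lowest ratio of the family. It was 41.9 units above the blank level in normal serum and 24.2 units in dystrophic serum, or 43.6 and 20.01 as normalized signals. The ratio was 0.459 with a noise interval from 0.136 to 0.894. miR-20a and miR-106a were thus the members at a ratio of 0.5 or less, 2 of 5, whereas 8 of the 142 miRNAs, 5.63%, reached this limit. Without scaling between the arrays miR-106a was at 0.577 and miR-20a at 0.438, and 2.11% of the miRNAs were at 0.5 or less. With scaling on control probes miR-106a was at 0.602, and without background subtraction miR-106a and miR-20a were at 0.852 and 0.822. No member was above 2, a limit passed by 13.4% of the miRNAs. On the dystrophic array the spot of miR-106a was matched or exceeded by 14 of the spots without a probe, that of miR-20a by 19. On the normal array 4 such spots reached each of them. The spot of miR-106a was matched or exceeded by 1 negative control on the normal array and by 7 on the dystrophic array.

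miR-93 and miR-106b, both of the miR-106b-25 cluster, which lies within an intron of the gene MCM7 in mammals, differed in detection. miR-93 was the member farthest from background. It lay 71.7 units above the blank level in normal serum and 62.1 units in dystrophic serum, and no blank spot of the normal array and 2 of the dystrophic array were as bright. Its normalized signals were 74.6 and 51.3, and the ratio was 0.688, with 0.477 and 0.983 as the limits of its noise interval. Left unscaled, the ratio was 0.866. miR-106b was 5.37 units above the blank level in normal serum, where it was not detected, and 10.2 units in dystrophic serum, where it was. Its normalized signal there was 1.02 times the lowest signal detected on the normal array. On the dystrophic array 85 blank spots, 32 spots without a probe and 26 of the 32 negative controls were as bright as its spot. The level of miR-106b was thus not distinguishable from background by these arrays.

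miR-20b lies in the same cluster as miR-106a. Its values were 29.0 units above the blank level in normal serum and 20.02 units in dystrophic serum, with normalized signals of 30.2 and 16.6. On the dystrophic array 23 blank spots, 16 spots without a probe and 13 of the 32 negative controls were as bright as its spot. On the normal array 14, 8 and 4 were. The ratio was 0.548, and its noise interval, from 0.0846 to 1.59, included 1. When the blank spots of its own block of the array were taken as the background the ratio was 0.700, the largest shift by this choice among the 5 members.

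miR-17, after which the family is named, was detected in normal serum alone. It was 10.6 units above the blank level there and 5.31 units in dystrophic serum. The normalized signal in normal serum was 11.0, or 1.60 times the lowest signal that was detected on the array of dystrophic serum. The normal spot was no brighter than 86 of the blank spots and 31 of the spots without a probe, so that its level in serum was not distinguishable from background by these arrays.

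miR-18a and miR-18b were close to background in both pools. miR-18a was 14.1 units above the blank level in normal serum and 15.1 units in dystrophic serum, so that the unscaled value was the higher one in dystrophic serum. The normalized signals were 14.7 and 12.5, and the ratio of 0.853 had a noise interval reaching 0 with no upper limit. On the normal array 13 of the 32 negative controls were as bright as its spot, on the dystrophic array 20, so that the ratio gives no measure of a difference. miR-18b was not detected, with 1.65 and 4.52 units above the blank level. No ratio is given for it.

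**Figure D2:**
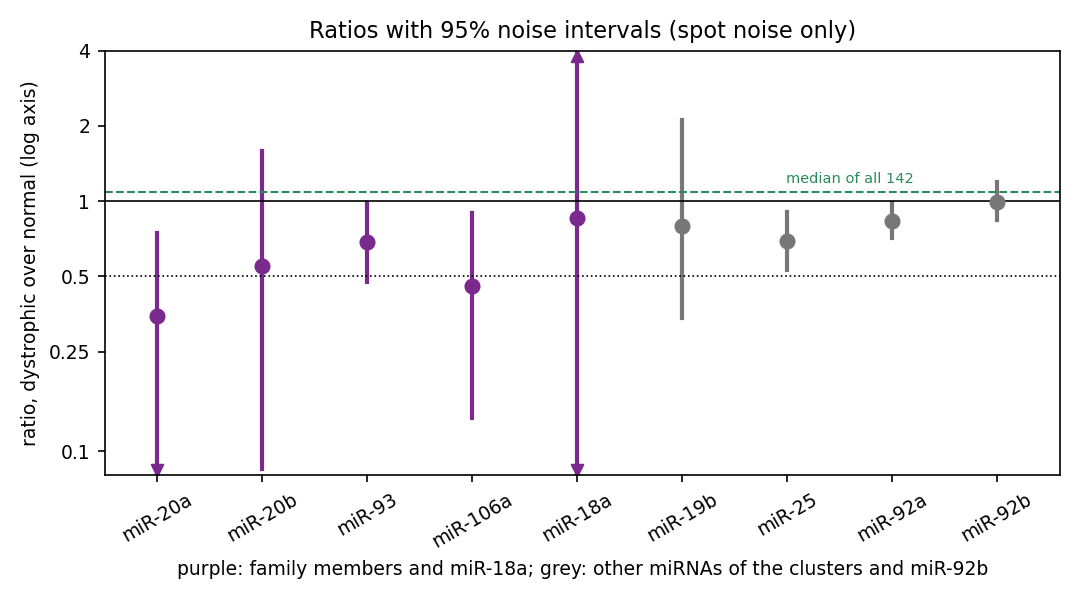
Ratio of dystrophic over normal normalized signal (y axis, log scale) for the 5 members detected in both pools (purple) and the 4 partner miRNAs detected in both (grey), with 95% noise intervals as bars and arrowheads where a bar runs past the axis. The solid line is 1, the dotted line 0.5 and the dashed line the median of the 142 miRNAs, 1.09; the bars of miR-20a, miR-93 and miR-106a end below 1. Without scaling between the arrays the bar of miR-20a alone would end below 1, those of miR-93 and miR-106a would reach 1.24 and 1.12, and the points of miR-18a, miR-19b, miR-92a and miR-92b would lie at 1.07, 1.003, 1.051 and 1.25.

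Among the members, the noise interval lay below 1 for 3 of 5, namely miR-20a, miR-93 and miR-106a. Of the 142 miRNAs, 9.86% had such an interval. Without scaling between the arrays the interval lay below 1 for 1 of 5 members, miR-20a (upper limit 0.936), and for 5.63% of the miRNAs, while the upper limits of miR-93 and miR-106a were 1.24 and 1.12. A ratio below 1 was found for 5 of 5 members, among them miR-18a with its spots at background, and for 41.5% of the 142 miRNAs. Without scaling it was found for 4 of 5 and 24.6%, respectively. The intervals of the 5 members overlapped each other, and an order among their ratios cannot be read beyond the noise of the spots. miRNAs with similar sequences can bind each other's probes. How much labelled RNA the spots of the family shared was not tested, and the 5 ratios are not independent measurements.

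**Figure D3:**
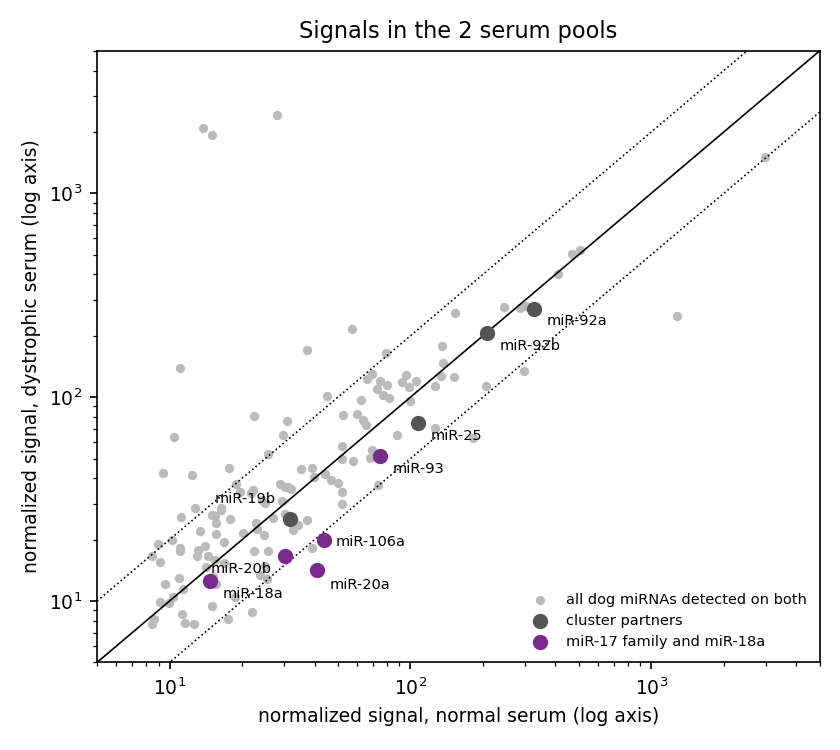
Normalized signal in dystrophic serum (y axis, log scale) against normal serum (x axis, log scale) for the 142 dog miRNAs detected in both pools (light grey), with the members in purple and the partner miRNAs in dark grey, 1 spot per point on each array. The solid line marks equal signals and the dotted lines ratios of 2 and 0.5; miR-20a and miR-106a lie below the lower dotted line, and the purple point nearest the solid line is miR-18a, which lay above it without scaling (1.07).

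The other miRNAs of the 3 clusters were taken as partners, by the names miR-19, miR-25, miR-92 and miR-363. These names also took in miR-92b, which is not of the clusters. They are miR-19a and miR-19b, which are known to carry much of the oncogenic activity of miR-17-92, and the seed family of miR-25, miR-92a, miR-92b and miR-363. In the dog annotation of RefSeq the 3 clusters hold 15 miRNA genes, 6 in miR-17-92, 6 in miR-106a-363 and 3 in miR-106b-25, whereas MIR92B lies elsewhere. All 8 members and all 6 partners matched a gene by name. miR-19b and miR-92a each have a gene in both miR-17-92 and miR-106a-363, and their spots cannot tell these apart.

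Of the 6 partners, 4 were detected in both pools and 2, miR-19a and miR-363, in neither. The 4 ratios, that of miR-92b included, were below 1, with a median of 0.816, and none was at 0.5 or less. Those of miR-19b, miR-92a and miR-92b were, however, at 1.003, 1.051 and 1.25 without scaling. miR-92a had a normalized signal of 325 in normal serum and 272 in dystrophic serum, a ratio of 0.835 (noise interval 0.713 to 0.982). For miR-92b the signals were 208 and 207, a ratio of 0.996 (0.842 to 1.19). miR-25, the neighbor of miR-93, had signals of 107 and 74.7 and a ratio of 0.696 (0.533 to 0.906). Unscaled, the intervals of miR-92a and miR-25 included 1, with upper limits of 1.24 and 1.14, and that of miR-92b lay above 1, with a lower limit of 1.06. The ratios of these neighbors, 0.696 and 0.688, were nearly equal. miR-19b had signals of 31.5 and 25.1, a ratio of 0.797 with an interval from 0.340 to 2.11. The interval of miR-20a overlapped that of its cluster partner miR-92a.

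**Figure D4:**
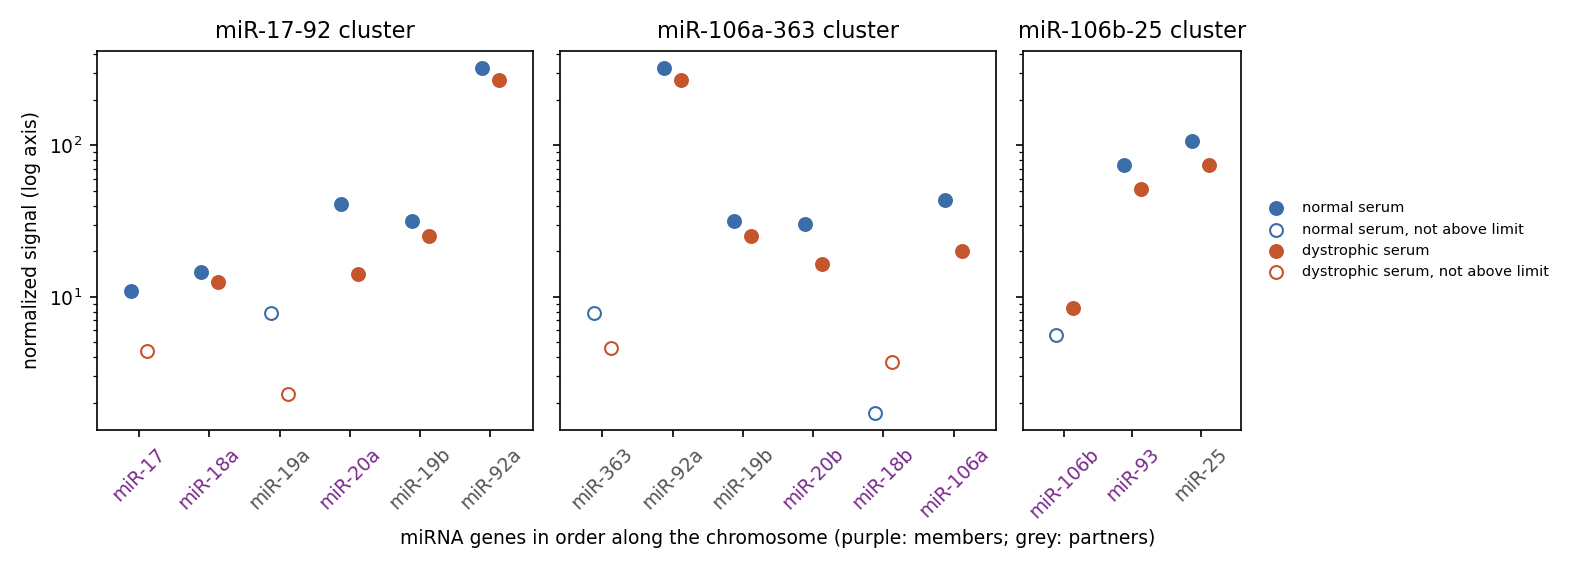
Normalized signal (y axis, log scale) of the miRNAs of each cluster in order along the chromosome (x axis), in normal serum (blue) and dystrophic serum (orange), with open points for spots not above the detection limit; miR-19b and miR-92a are drawn in both clusters with the same values. Brightness depends on the probe, so only the 2 colors of 1 miRNA may be compared; miR-20a and miR-106a show the widest gaps among the miRNAs detected in both pools, and without scaling miR-18a, miR-19b and miR-92a have ratios of 1.07, 1.003 and 1.051.

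Within the miR-17-92 cluster miR-20a had a ratio of 0.348, miR-19b of 0.797 and miR-92a of 0.835, and miR-18a was at background in both pools, while miR-17 was detected in normal serum alone and miR-19a in neither pool. Within miR-106a-363 they ran from 0.459 for miR-106a through 0.548 for miR-20b to the same values for miR-19b and miR-92a. miR-20a, the only miR-17 seed family member of miR-17-92 with a ratio, was lower than the partners miR-19b and miR-92a. So were miR-106a and miR-20b of miR-106a-363, and the noise intervals overlapped. The partner spots are the same for both clusters, so these are not separate comparisons.

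Serum miRNAs can come from blood cells and tissues, and lists of miRNAs known for such sources were therefore set beside the family. The red-cell list held miR-451, miR-144, miR-486 and miR-16, of which 3 were found on the array by name. miR-451, a miRNA of erythroid cells, had normalized signals of 1276 and 250.04, and miR-16 had 182 and 62.7. Their ratios were 0.196 and 0.346, and miR-144 was not detected. The summed signal of the detected miRNAs of this list was 1457 in normal and 313 in dystrophic serum.

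In the list for platelets and endothelium 4 of 5 miRNAs were detected in both pools, with ratios from 0.403 for miR-21 to 1.07 for miR-24. The noise interval of miR-21 ran from 0 to 3.23. Its signal in dystrophic serum was 8.87, where the lowest detected was 6.87. miR-223, a myeloid and platelet miRNA, had a ratio of 0.549 (0.448 to 0.662). miR-126, which marks endothelium, was not detected in either pool, and the summed signal was 747 in normal and 661 in dystrophic serum. In the list for skeletal muscle 4 of 5 miRNAs had a ratio above 2, and miR-1 passed the detection limit in the dystrophic pool only. The summed signals of this list were 67.7 and 6616. Most of the latter came from miR-133a (1934), miR-133b (2426) and miR-133c (2097). Their sequences are similar, so the sum may count the same RNA more than once. Of the red-cell list, miR-451 and miR-16 thus were lower in dystrophic serum, as were the normalized signals of miR-20a, miR-20b, miR-93 and miR-106a. The noise interval of miR-20b included 1, and without scaling those of miR-93 and miR-106a did too. The listed muscle miRNAs were higher in dystrophic serum. These directions hold for the listed miRNAs only. miR-185 was not on the red-cell list, and its signals were 1.99 in normal serum, under the limit, and 11.4 in dystrophic serum, above it. miR-499 was not on the muscle list, and its signals were 12.3 in normal serum, above the limit, and 5.14 in dystrophic serum, under it. The part of red cells, platelets or muscle in the ratios of the family was not tested. With pooled serum, fewer releasing cells and less RNA from each cell cannot be told apart. With a single pool for each condition, neither can be told apart from a difference in how the sera were collected.

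The 3 dog miRNAs outside the family whose pair of signals was most like that of the median member, 40.9 in normal and 16.6 in dystrophic serum, were all of the let-7 family. They were found by the distance between log2 signals over the 2 arrays. let-7b had signals of 39.0 and 18.2 with a ratio of 0.465, let-7c 32.7 and 22.3 with 0.684, and let-7a 34.2 and 23.6 with 0.691. Their noise intervals were 0.106 to 0.996, 0.248 to 1.73 and 0.272 to 1.65. Of the others named let-7, let-7e had a ratio of 1.09 with an interval from 0 and no upper limit. let-7f was detected in dystrophic serum alone, let-7g in normal serum alone and let-7j in neither. Only 2 arrays enter the likeness of signals.

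The size of the ratios depended on the background and the scaling. Without background subtraction the 5 members had ratios from 0.822 for miR-20a to 0.964 for miR-18a, and none was at 0.5 or less. With quantile normalization 4 of 5 were at 0.5 or less. Against the median of all miRNAs used, miR-20a, miR-20b, miR-93 and miR-106a were below it under each alternative that gave them a ratio.

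**Figure D5:**
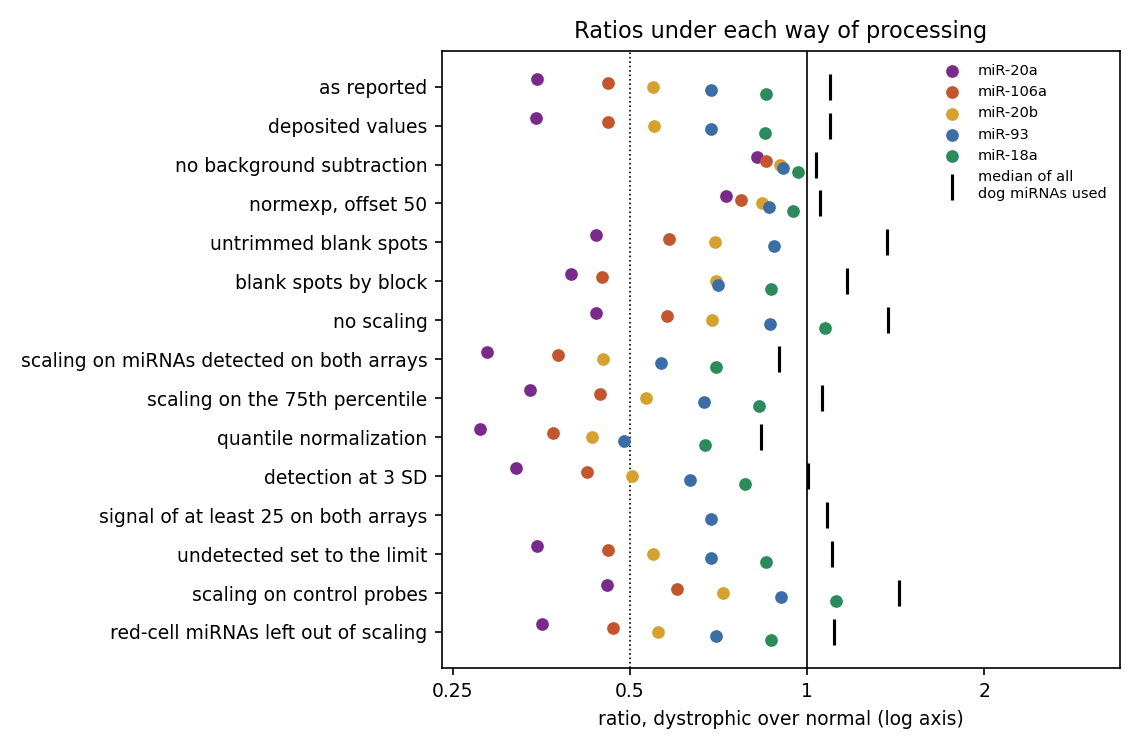
Ratio of dystrophic over normal signal (x axis, log scale) of the 5 members detected in both pools (colors) under each way of processing (y axis), with the median of all dog miRNAs used as a black bar, the solid line at 1 and the dotted line at 0.5. The points of miR-20a are the leftmost where it has a ratio, from 0.278 with quantile normalization to 0.822 without background subtraction, and the points of miR-18a cross 1 without scaling (1.07) and with scaling on control probes (1.12).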

How the data were processed

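Per the labels, RNA of each serum pool was labeled with Cy5 and hybridized to a Toray 3D-Gene chip. The authors deposited the scanner intensity of each spot, which is not normalized, and a table with normalized intensity to 1 decimal. Spots were read with 3D-Gene Extraction software, whose settings are not given in the sources used here. The normalized signals recomputed from the scanner intensity differed from the deposited table by less than its rounding (at most 0.0498 units over the 188 miRNAs of dystrophic serum).

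Noise intervals were calculated without resampling, from the central 95% of the blank spots and the coefficient of variation of 10 control probes, joined in quadrature and passed to the ratio by the MOVER formula. A bright control lay above the blank mean by 5 or more times the distance of the detection limit on both arrays. Scaling on control probes left out S-Probe6, whose ratio of dystrophic over normal, 2.22, lay farthest from the median of the bright controls. Lists and members were chosen with earlier results of these data known. The named miRNAs were the 8 members, the partners, the 3 nearest others and miRNAs of the marker lists. let-7a, let-7b and let-7c came from that rule. The number of arrays limits the precision, and no p-value was computed. Alternatives concerning background, scaling, detection and dim signals were tried, 13 from the outset and 2 added after seeing the data. Background subtraction, detection and ratios were tested on simulated arrays without scaling. Recovery of the ratios was checked for bright spots only. By its mean intensity over both arrays, miR-93 is the only member that bright. The scaling and the coverage of the noise intervals were not simulated.

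Genes were named and ordered with the RefSeq annotation of UU_Cfam_GSD_1.0. Python 3.11.15, numpy 2.4.6, pandas 2.3.3, and matplotlib 3.10.9 were used, with limma 3.58.1 in R 4.3.3.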

Additional observations from a re-analysis of the deposited data

How the results depend on the processing

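The number of members detected in both pools was 5, of which 2 were at 0.5 or less, none was above 2 and the median ratio was 0.548. Without background subtraction and with normexp correction (offset 50) the number at 0.5 or less was 0, and the median ratio was 0.898 and 0.840, because background or offset left in both signals draws ratios toward 1. The number at 0.5 or less was 1 without trimming of the blank spots (among 4 members), 1 without scaling, 1 with scaling on control probes and 4 with quantile normalization. When a signal of 25 or more was required in both pools, 1 member was left, miR-93, and 0 at 0.5 or less. Subtraction of the local background left 0 members and gave no ratio. The number above 2 was 0 under all alternatives that gave a ratio. The cause of these shifts was not tested beyond what is named.

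The median log2 ratio of all miRNAs moved by 0.33 without scaling, by 0.39 with control probes, by -0.28 with scaling on miRNAs detected on both arrays, by -0.39 with quantile normalization, by 0.32 without trimming, by -0.12 with detection at 3 SD and by 0.21 with local background. Over the alternatives that gave a ratio, miR-20a ranged from 0.278 to 0.822, miR-106a from 0.370 to 0.852, miR-20b from 0.431 to 0.898, miR-93 from 0.489 to 0.912 and miR-18a from 0.671 to 1.12. The alternatives with control probes and without red-cell miRNAs in the scaling were chosen after seeing the data. No paired analysis was possible because a single array stands for each pool, and for the same reason no replicate could be left out. Signal over background limits every member other than miR-93.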
